A study of Homo sapiens with 11 samples.

Results

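Near pairs of alternative 3′ splice sites are introns that share a donor and can end at either of 2 acceptors lying at most 50 nt apart. They were taken from the alternative 3′ splice site table of a MISO (Mixture of Isoforms) comparison of U2AF1 S34F with wild-type U2AF1, as unique events with exactly 2 junctions and at least 10 reads on each side. There were 5789 near pairs among the 9426 2-junction events with that many reads and among 11868 unique events in the table. The other 3637 pairs, with sites further apart, are called far pairs below. The near pairs lay in 4184 gene symbols, of which 3037 held 1 pair and GPR56 held the most, 9. Most near pairs (5601, 96.8%) were in genes listed as protein coding, and 878 were listed for more than 1 symbol.

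The cells were HCC78, a human lung adenocarcinoma line with a ROS1 rearrangement whose own U2AF1 is already heterozygous for S34F. RNA-Seq was performed on 9 libraries. These were the line carrying inducible wild-type U2AF1 with doxycycline (WT dox+, n = 2) and without it (WT dox-, n = 2), the line carrying inducible S34F with doxycycline (S34F dox+, n = 2) and without it (S34F dox-, n = 1), and the parental line (n = 2), labelled as without doxycycline. S34F made up 62% and 65% of U2AF1 mRNA in S34F dox+ and 12% and 14% in WT dox+ per the labels, against 32% in both parental libraries, so the comparison is between a high and a low share of the mutant, not between presence and absence. The tagged cDNA was carried by a lentivirus in stable subclones, and the number of clones behind each line is not given in the sources used here. All 9 markers looked up for a lung carcinoma line were at 1 FPKM or more in every library, among them KRT8 (1569 to 2410 FPKM), EPCAM (407 to 545 FPKM) and ROS1 (8.63 to 37.8 FPKM). Of 13 fibroblast, leukocyte and endothelial markers, 3 (LUM, CD14 and CDH5) were under 1 FPKM in all libraries and 8 reached at most 1.21 to 2.93 FPKM. The other two, COL1A1 (2.83 to 7 FPKM) and CD68 (13.5 to 34.4 FPKM), were above 1 FPKM in all of them.

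The 3′ end of an intron is recognised by the U2AF heterodimer, in which U2AF2 binds the polypyrimidine tract and U2AF1 contacts the AG dinucleotide at the splice junction. Serine 34 of U2AF1 lies in a zinc finger that touches RNA, and its replacement by phenylalanine is a recurrent mutation in lung adenocarcinoma and myeloid neoplasms. Where AG dinucleotides lie close together, the spliceosome can use more than one of them, and the choice adds or removes a short stretch at the start of the exon. That stretch keeps the reading frame of a coding exon only when its length is a multiple of 3.

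For every pair MISO gave a percent spliced in (PSI), printed here as a fraction, a Bayes factor for the difference between the S34F and the wild-type side, and the reads assigned to each side. The table gives 1 value per side and no replicates, and does not say how libraries were combined, so no test of a PSI difference was possible, and the Bayes factor covers estimation error within the compared reads only. In every 2-junction event the first junction listed had the shorter intron, so PSI was read as the share of transcripts using the intron-proximal site, which gives the longer exon. The order was checked on the retained intron table of the same comparison, where the spliced junction was listed first in 5131 of 5134 events. There the median PSI in wild-type was 0.74 over these 5131 events, with 68.3% of them over 0.5. Over 830 events with at least 1000 reads it was 0.93, with 84.6% over 0.5. This fits a first junction that is the counted one, but the order was not checked on the alternative 3′ pairs themselves. Across 3754 host genes, the ratio of S34F to wild-type reads followed the difference in FPKM between the dox+ libraries (Spearman correlation 0.547) more closely than that between the dox- libraries (0.11). This is a description across genes, which share libraries.

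A pair was called where PSI differed by 0.10 or more with a Bayes factor of 5 or more. Only 42 near pairs were called, 22 with more use of the intron-proximal site in S34F and 20 with less. That is 0.726% of near pairs (0.38% higher and 0.345% lower), against a background of 1.02% over all 9426 pairs, where 0.541% were called higher and 0.477% lower. Among far pairs 54 (1.48%) were called, and 1.28% were called among the 79960 events of the whole comparison. The latter include events with several isoforms, counted by the isoform with the largest Bayes factor, which makes a call more likely. Pairs of donors at most 50 nt apart, from the alternative 5′ splice site table, had a share close to that of near pairs (57 of 7418, 0.768%). NAGNAG pairs, whose acceptors are 3 nt apart and are held in a table of their own, had the lowest share (43 of 13886, 0.31%). At any Bayes factor, however, 38.4% of NAGNAG pairs differed by at least 0.10, against 30.1% of near pairs. Their median reads were also lower, 203 in S34F and 290 in wild-type against 335 and 478 for near pairs. None of these shares was compared by a test, since pairs of a gene share reads.

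The use of near sites was alike on both sides for most pairs. PSI differed by at most 0.05 in 3207 near pairs (55.4%), the median was 0.39 in S34F and 0.36 in wild-type, and Pearson's r between the sides was 0.935 across near pairs, which share their libraries. With at least 1000 reads on the side with fewer, r was 0.984 over 1241 pairs, and with 10 to 99 reads it was 0.706 over 1349 pairs. A difference of at least 0.10 at any Bayes factor was listed for 1740 near pairs (30.1%, against 29.9% of all pairs), of which 1698 had a Bayes factor under 5. Of 242 pairs with a difference of at least 0.30, 28 were called. The opposite case, a Bayes factor of at least 5 with a smaller difference, occurred in 5 pairs, in BCLAF1, COPA, FOSL1, RSRC2 and STAT3. All 5 had lower PSI in S34F, as in COPA, a coat protein of the secretory pathway (0.90 in S34F, 0.99 in wild-type, Bayes factor 179.94).

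**Figure D1:**
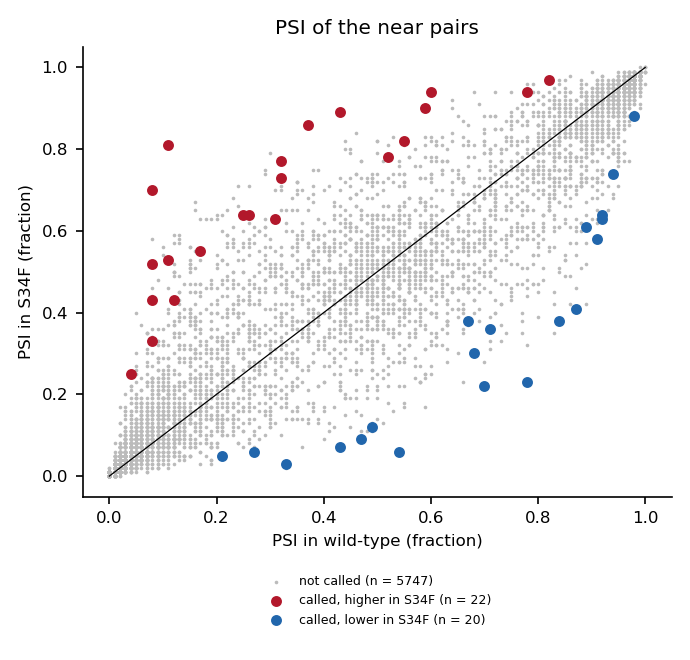
Each point is a near pair, with PSI (fraction using the intron-proximal site) in wild-type on the x axis and in S34F on the y axis. Grey points were not called, red points (22) were called higher and blue points (20) lower in S34F, and the diagonal marks equal PSI. Most pairs lie along the diagonal.

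The distance between the sites was not spread evenly. The most frequent distance was 4 nt, with 668 pairs, followed by 5 nt with 428, 2 nt with 308 and 6 nt with 288, whereas only 61 pairs were 1 nt apart. No pair was 3 nt apart, since such pairs are in the NAGNAG table. In all, 1967 near pairs (34%) differed by a multiple of 3, against 40.5% of far pairs, but the near share lacks the pairs 3 nt apart. The share was 16.4% up to 6 nt, 42.8% from 7 to 12 nt and 46.8% from 13 to 24 nt. It was 40.4% from 25 to 36 nt and 33.3% from 37 to 50 nt.

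**Figure D2:**
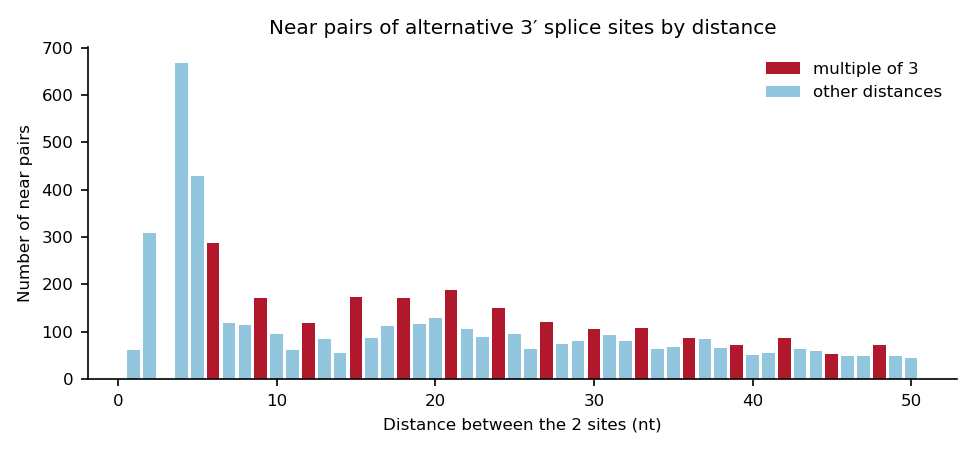
Number of near pairs (y axis) at each distance between the 2 sites in nt (x axis), with multiples of 3 in red and other distances in blue. The tallest bar is at 4 nt (668 pairs) and the bar at 3 nt is empty.

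Distance went with which site was used in wild-type cells. Up to 6 nt, PSI in wild-type was under 0.10 in 43.0% of 1753 pairs and over 0.90 in 2.28%, with 54.8% in between. From 7 to 12 nt the shares under 0.10 and over 0.90 were 42.4% and 5.15% of 680 pairs. From 13 to 24 nt the order turned, with 16.8% of 1465 pairs under 0.10 and 23.4% over 0.90. The median PSI in wild-type went from 0.14 and 0.15 in the 2 nearest classes to 0.63, 0.54 and 0.455 in the classes from 13 to 24, 25 to 36 and 37 to 50 nt. In S34F the same medians were 0.17, 0.21, 0.61, 0.54 and 0.435, with the same turn after 12 nt. The shares also differed between read classes. With 10 to 99 reads, 94.4% of near pairs had a PSI between 0.10 and 0.90 in wild-type, and with at least 1000 reads 24.2% did.

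**Figure D3:**
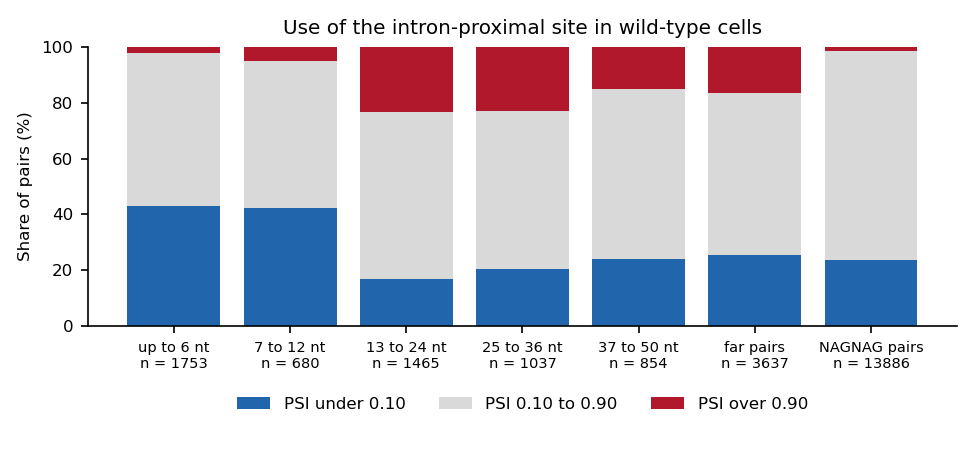
Share of pairs in percent (y axis) with a wild-type PSI under 0.10 (blue), 0.10 to 0.90 (grey) or over 0.90 (red), for 5 classes of distance, far pairs and NAGNAG pairs, with the number of pairs under each bar. The blue part is largest up to 12 nt and the red part from 13 to 36 nt.

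Calls were found in every class of distance. There were 9 called pairs up to 6 nt (0.513%), 3 from 7 to 12 nt (0.441%), 10 from 13 to 24 nt (0.683%), 13 from 25 to 36 nt (1.25%) and 7 from 37 to 50 nt (0.82%). Of the called pairs 20 differed by a multiple of 3 (1.02% of such pairs, 11 higher and 9 lower) and 22 did not (0.576%, 11 and 11). Singled out after its values were seen, the distance of 18 nt held 7 called pairs among 171 (4.09%), in GLYR1, BCL2L1, R3HDM2, WWC1, ITPR3, SULT1A3 and SULT1A4. The last pair of genes are near-identical copies on chromosome 16, so their reads cannot be told apart with certainty and may be 1 event. Of 1704 near pairs with a PSI under 0.10 in wild-type 5 were called, and of 786 pairs over 0.90 also 5, where only a change away from the limit can reach the minimum difference. The called share grew with reads, from 0.297% at 10 to 99 reads through 0.75% at 100 or more but under 1000 to 1.13% at 1000 or more.

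In 20 called pairs PSI lay on opposite sides of 0.5, so that the site used more was not the same, 12 of them toward the intron-proximal site in S34F and 8 away from it. Differences ran from 0.15 to 0.70 (median 0.365) among the pairs called higher and from -0.10 to -0.55 (median -0.34) among those called lower. Bayes factors were 5 to 10 in 18 of the 42, and 10 pairs were listed for more than 1 symbol. The called pairs lay in 42 genes on 20 chromosomes. Their intron up to the proximal site had a median length of 1647.5 nt, against 1187 nt over all near pairs.

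**Figure D4:**
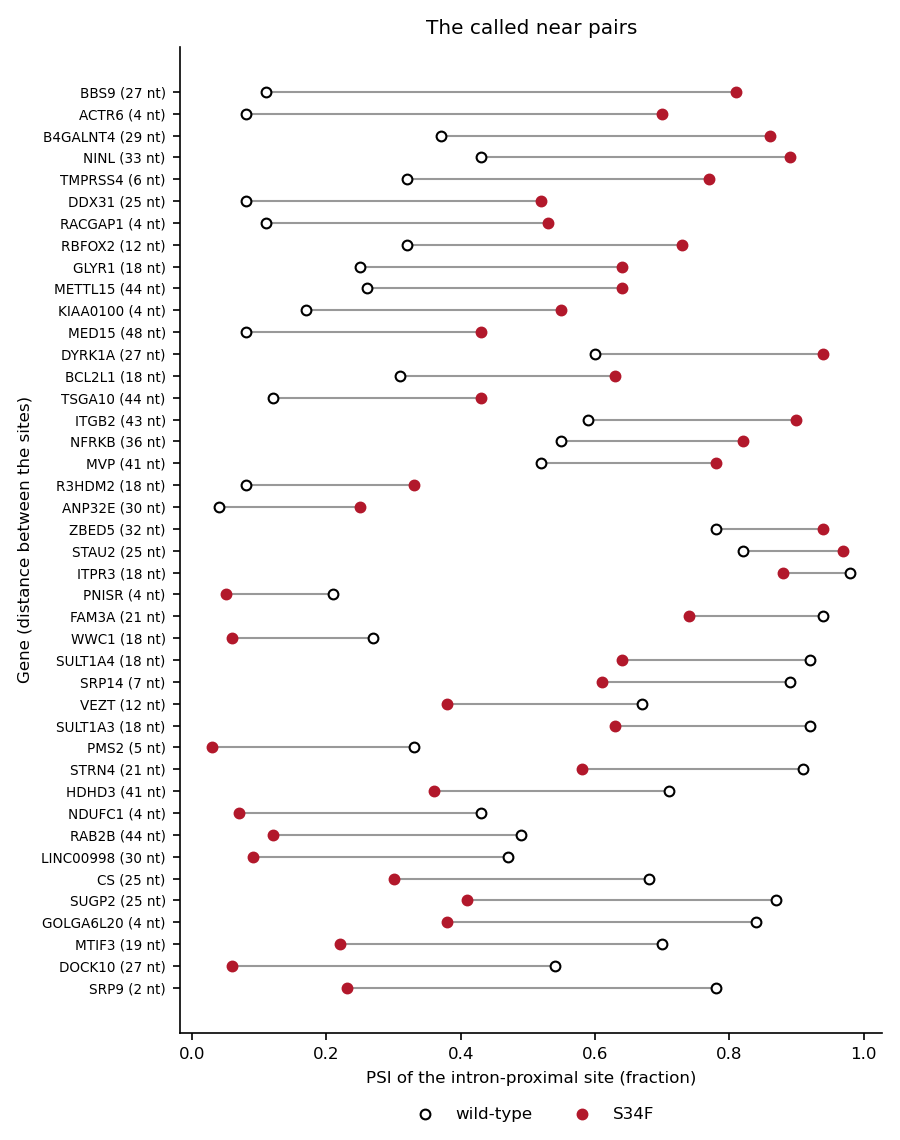
PSI of the intron-proximal site (x axis, fraction) in wild-type (open circles) and S34F (red circles) for the 42 called near pairs, 1 gene per line with the distance between its sites. The lines run from BBS9, with the largest difference toward the proximal site in S34F (0.70), to SRP9, with the largest away from it (-0.55).

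Among the pairs called higher, the intron-proximal site went from minor to major in BBS9, a subunit of the BBSome that carries cargo to cilia. Its sites lie 27 nt apart at chr7:33185854-33185881 (build GRCh37/hg19, plus strand, as are the coordinates that follow unless another strand is named) behind a donor at 33169653. PSI was 0.81 in S34F and 0.11 in wild-type, on 52 and 48 reads, with a Bayes factor of 1721310.6, the highest of any near pair. ACTR6, an actin-related protein of a chromatin remodelling complex, had sites 4 nt apart at chr12:100606034-100606038 and PSI of 0.70 and 0.08. This pair is also listed for DEPDC4.

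Of the 9 called pairs with a Bayes factor of at least 100, the one with the most reads was in RBFOX2, an RNA-binding regulator of alternative exons. Its sites lie 12 nt apart at chr22:36156067-36156079 on the minus strand, and PSI was 0.73 in S34F and 0.32 in wild-type on 2867 and 4559 reads (Bayes factor 31206.38). The 12 nt keep the frame where the stretch is coding. MED15, a subunit of the Mediator complex that links transcription factors to RNA polymerase II, had PSI of 0.43 and 0.08 at sites 48 nt apart on 1541 and 2009 reads (Bayes factor 56.85). In RACGAP1, a protein needed for cytokinesis, PSI was 0.53 and 0.11 at sites 4 nt apart (Bayes factor 6.38).

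Other pairs called higher covered several functions. The mitochondrial rRNA methyltransferase METTL15 had a PSI of 0.64 in S34F against 0.26 in wild-type, and GLYR1, a nucleosome-binding protein, 0.64 and 0.25. The membrane serine protease TMPRSS4 had 0.77 and 0.32, the centrosomal protein NINL 0.89 and 0.43, the glycosyltransferase B4GALNT4 0.86 and 0.37, the RNA helicase DDX31 0.52 and 0.08, and KIAA0100 0.55 and 0.17. These 7 had Bayes factors between 6.32 and 20.66. Beyond the 12 largest differences, 3 pairs chosen for their Bayes factors were DYRK1A, a protein kinase (0.94 and 0.60, Bayes factor 4890.25), R3HDM2 (0.33 and 0.08, 399.71) and STAU2, a double-stranded RNA binding protein (0.97 and 0.82, 65.51).

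Among the pairs called lower were both subunits of the Alu domain of the signal recognition particle, which pauses translation of secreted proteins. In SRP9 the sites lie 2 nt apart at chr1:225974564-225974566, and PSI was 0.23 in S34F and 0.78 in wild-type on 3677 and 5100 reads, with a Bayes factor of 10.53. In SRP14 they lie 7 nt apart at chr15:40329549-40329556 on the minus strand, and PSI was 0.61 and 0.89 on 1850 and 3108 reads, with a Bayes factor of 1643.27. Neither distance is a multiple of 3. The SRP14 pair was outside the 12 largest differences and is named for its partner.

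Several pairs called lower were in genes of mitochondrial function. MTIF3, a mitochondrial translation initiation factor, had a PSI of 0.22 in S34F against 0.70 in wild-type at sites 19 nt apart (Bayes factor 38.17), citrate synthase (CS) 0.30 and 0.68 at 25 nt (5.78), and NDUFC1, a complex I subunit, 0.07 and 0.43 at 4 nt (6.08). These and METTL15 were grouped after their values were seen, and no set was tested. STRN4, a striatin of the STRIPAK phosphatase complex, had PSI of 0.58 and 0.91 at sites 21 nt apart at chr19:47230803-47230824 on the minus strand (Bayes factor 189.86). DOCK10, a guanine nucleotide exchange factor, had 0.06 and 0.54, SUGP2, a protein with SURP and G-patch domains, 0.41 and 0.87, and the small GTPase RAB2B 0.12 and 0.49.

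The remaining pairs among the 12 lowest were LINC00998 (0.09 in S34F, 0.47 in wild-type, Bayes factor 40.1), HDHD3 (0.36 and 0.71), PMS2 (0.03 and 0.33) and GOLGA6L20 (0.38 and 0.84). PMS2, a mismatch repair protein, has close pseudogene copies, and GOLGA6L20 belongs to a multigene family, so reads of both could be shared with copies. Beyond them, high Bayes factors were listed for PNISR, an arginine and serine rich nuclear protein (0.05 and 0.21 at sites 4 nt apart, 214.66), and WWC1, a scaffold of the Hippo pathway (0.06 and 0.27 at 18 nt, 113.18). A Bayes factor of at least 100 was reached by 9 near pairs in all (0.155%, against 0.191% of all pairs), 4 higher and 5 lower.

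The same 2 acceptors did not always differ from every donor. In 5 genes, 12 further near pairs joined both sites of a called pair to another donor, none of them was called, and 7 differed by at most 0.05. In RACGAP1 the pair from the donor at 50414845 had a PSI of 0.51 in S34F against 0.15 in wild-type (Bayes factor 1.96), near the values of the called pair, while pairs from the donors at 50419111 and 50419181 had 0.21 and 0.17, and 0.03 and 0.07. In MTIF3 the other 3 donors gave differences of -0.01, -0.10 and 0.00 beside the -0.48 of the called pair. In CS they gave -0.12, -0.34 and 0.00 beside -0.38. How reads are divided among such overlapping pairs is not given, and in 275 of 1147 genes with at least 2 near pairs (24%) all pairs list identical reads, so the reads column counts more than the junctions of the pair. That share covers exact identity only. Pairs of a gene can also differ by few reads, as in PMS2 (394 and 615 for the called pair, 394 and 606 for pairs at other sites). They can differ by many, as in RACGAP1 (110 and 210 to 1040 and 1810). Reads given for a pair are thus not the depth at its 2 junctions alone.

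Over all called genes, 19 held 36 further near pairs, none called, with differences from -0.34 to 0.36 and 21 of them within 0.05. RBFOX2 and SRP14 had no second near pair. In SRP9 a pair 19 nt apart further downstream had a PSI of 0.01 in S34F against 0.04 in wild-type.

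Another called event of any of the 5 tables was listed in 5 of 41 host genes that had other events (12.2%), against 376 of 4018 genes with near pairs and no call (9.36%). In MED15 an alternative 3′ event from another donor uses the same intron-proximal site and a site 51 nt away, just beyond the limit for near pairs, and had a PSI of 0.46 in S34F against 0.07 in wild-type (Bayes factor 35.83), beside the near pair's 0.43 and 0.08. A called skipped exon event of MED15 that lists the same junction from that donor to the intron-proximal site had lower PSI in S34F, 0.24 against 0.60 (Bayes factor 60.41), and another skipped exon of the gene had 0.37 and 0.06 (Bayes factor 7.28). In STRN4 a 3-junction event includes both sites of the near pair. Its isoform with the largest Bayes factor (1148.47) was at 0.58 and 0.89, S34F first. Which of the junctions these values belong to was not kept. In R3HDM2 a skipped exon that begins at the near pair's distal site had PSI of 0.83 and 0.25 (Bayes factor 9622.44), the largest difference of these events, while a second called skipped exon from the same donor had 0.56 and 0.93 (Bayes factor 32.88). FAM3A held a called skipped exon (0.43 and 0.15) and SUGP2 a called retained intron (0.36 and 0.58). These events share reads with the near pairs and add no independent evidence.

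Of the 1241 near pairs with at least 1000 reads on the side with fewer, 14 were called. Among pairs that were not called, those with the most reads had PSI near 0 or 1, and their small differences follow from that choice. The 48 nt pair of ACTB, cytoskeletal actin, had a PSI of 0.00 in S34F against 0.01 in wild-type on 111177 and 151943 reads, and the 17 nt pair of the actin crosslinker FLNA had 0.99 on both sides. At the limit of 50 nt, the pair of PFKFB3 had 0.78 and 0.87, and 1 nt beyond it the pair of TIAL1 had 0.77 and 0.67. Neither was called.

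Lists of genes with 3 kinds of function were looked up, written from the genes' known roles. Of 30 genes for recognition of the 3′ splice site, 13 held 14 near pairs and 0 were called. The background is 0.726% of all near pairs, and nothing is read from 0 or 1 call in lists of this size. U2AF1 itself held a pair of events with sites 2 nt apart, with PSI of at most 0.01 on either side, U2AF2 had 0.02 in S34F and 0.01 in wild-type, and SF3B1, the branch site factor, had 0.02 and 0.01 on 5603 and 9118 reads. The pairs with intermediate PSI were in CDC40 (0.62 and 0.56), DHX8 (0.56 and 0.34 on 27 and 56 reads) and ZRSR2, which recognises the 3′ splice site of minor introns (0.48 and 0.29 on 72 and 131 reads), and their Bayes factors were at most 1.05. Of 187 RNA processing genes, 89 held 136 near pairs, of which 1, that of RBFOX2, was called (0.735%). Of 106 genes of cell adhesion, matrix and cytoskeleton, 34 held 46 near pairs and 0 were called.

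Host gene expression was compared between S34F dox+ and WT dox+ with limma-trend on log2(FPKM + 1). Of the 42 host genes, 0 were higher and 0 lower at an adjusted p under 0.05, against 0.0198% and 0.0329% of 15179 genes tested (3 and 5 genes). At an unadjusted p under 0.05, 2 were higher and 1 lower (background 4.01% and 2.77%). The median log2 fold change of the host genes was -0.002, from -0.44 to 0.68, and 21 of 42 were positive. Without doxycycline, the single S34F dox- library differed from the WT dox- mean by a median of -0.006 over the same genes, a value with no test. Among host genes of all near pairs, 1 of 3754 was higher and 0 lower at an adjusted p under 0.05.

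The 3 host genes with an unadjusted p under 0.05 were MTIF3, TSGA10 and ACTR6. MTIF3 was at 32.15 and 32.11 FPKM in S34F dox+ and at 24.68 and 18.22 FPKM in WT dox+ (log2 fold change 0.58 ± 0.194 SE, limma adjusted p = 0.629). The fold change was 0.37 without WT dox+ replicate 2 and 0.79 without WT dox+ replicate 1. The S34F dox- library was also above the WT dox- libraries, at 37.07 against 26.01 and 23.29 FPKM. ACTR6 was at 11.46 and 8.54 FPKM in S34F dox+ and 14.38 and 13.23 FPKM in WT dox+ (log2 fold change -0.44, limma adjusted p = 0.696), with a fold change of -0.25 without S34F dox+ replicate 2. TSGA10 was at 12.02 and 9.76 against 6.83 and 7.34 FPKM (limma adjusted p = 0.623). Without doxycycline, TSGA10 was also higher in the S34F dox- library, at 8.44 against 6.2 and 4.79 FPKM in WT dox-. ACTR6 went the other way there, at 13.63 FPKM in S34F dox- against 11.44 and 10.54 FPKM.

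Further host genes are given for their PSI values above. RBFOX2 was at 65.28 and 71.41 FPKM in S34F dox+ and 70.59 and 70.43 FPKM in WT dox+, which overlap. SRP9 was at 247.35 and 182.92 against 198.16 and 202.09 FPKM, and SRP14 at 383.95 and 311.75 against 362.18 and 377.54 FPKM, both overlapping. BBS9, with the largest PSI difference, was lowly expressed at 3.31 and 4.87 FPKM in S34F dox+ and 1.76 and 2.59 FPKM in WT dox+ (log2 fold change 0.68 ± 0.339 SE, limma adjusted p = 0.759), and its fold change was 0.45 without S34F dox+ replicate 2.

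**Figure D5:**
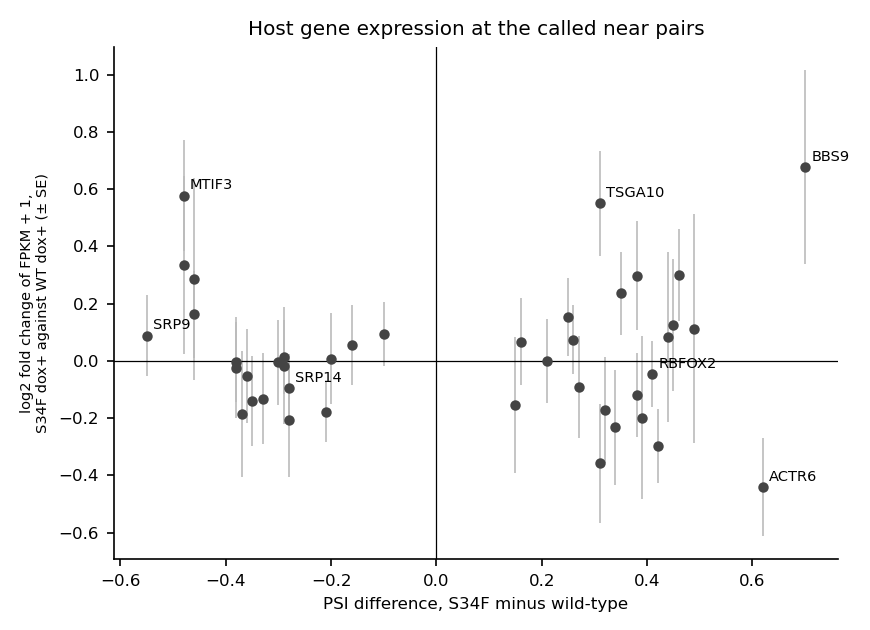
PSI difference (S34F minus wild-type, x axis) and log2 fold change of FPKM + 1 between S34F dox+ and WT dox+ with its SE (y axis, n = 2 libraries each) for the host genes of the 42 called near pairs. The fold changes lie from -0.44 (ACTR6) to 0.68 (BBS9), on both sides of 0 for positive and negative PSI differences.

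The factors that recognise the 3′ splice site did not pass the test either. U2AF1, which is both the endogenous gene and the induced construct, was at 194 ± 41.2 FPKM (SD, n = 2) in S34F dox+ and 288 ± 15.2 FPKM (SD, n = 2) in WT dox+ (log2 fold change -0.59, limma adjusted p = 0.531). The fold change was -0.37 when S34F dox+ replicate 1 was left out and -0.80 when replicate 2 was. U2AF2 was at 103 ± 10.4 and 134 ± 0.58 FPKM (SD, n = 2 each, limma adjusted p = 0.56). In the S34F dox- library U2AF2 was at 148.16 FPKM, against 182.06 and 174.47 FPKM in WT dox-. U2AF1 was at 115.06 FPKM there, against 111.5 and 109.92 FPKM. Of 29 list genes tested, 0 were higher and 0 lower at an adjusted p under 0.05, and 1 (SLU7, a second step factor for 3′ site choice, log2 fold change 0.35) was higher and 2 (U2AF1 and U2AF2) were lower at an unadjusted p under 0.05. The mean FPKM of SF1, the branch point binding protein, was 167 and 180, that of SF3B1 130 and 128, and that of ZRSR2 13.9 and 10.1, S34F dox+ first. The part of the total U2AF1 level in the PSI differences was not tested.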

How the data were processed

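The near pairs and gene lists were chosen with earlier results of these data known. Reads were trimmed and aligned with STAR 2.3.0 by the authors, who computed deposited FPKM and TPM values with RSEM 1.2.29. The 5 deposited MISO tables hold PSI (other unit, a fraction from 0 to 1, rounded), Bayes factors (a score) and read counts, as the authors made them. Their sides are only numbered. S34F was read as side 1 from the order in which the comparison is named, mutant before wild-type. That both sides are dox+ libraries was also inferred. Reads per library are unknown. PSI was not transformed, and entries repeated for an event were used once. For events with several isoforms, the values of the isoform with the largest Bayes factor were used. Thresholds of 0.10 for PSI and 5 for the Bayes factor follow the study's methods. These also ask for 10 supporting reads, which was applied here to each side.

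With no counts per gene, log2(FPKM + 1) was fitted for 15179 genes averaging 1 FPKM or more, with limma 3.58.1 (R 4.3.3), 5 groups in 1 fit of 9 libraries, two-sided, Benjamini-Hochberg adjusted over all genes, and tested on simulated data. Replicates may be technical, so p-values measure the spread between these libraries only. Alternatives covered thresholds, distance, pseudocount, filter, scaling, TPM, a replicate block and left-out replicates, and 1 was chosen after seeing the data, leaving out pairs listed for several symbols. Named pairs were the 12 largest called differences in each direction, 5 uncalled and 6 RNA processing pairs with most reads, and 3 on either side of 50 nt, not all printed. Others are named as chosen after their values were seen. Junction coordinates are as deposited. The iCLIP samples were not analysed here.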

Additional observations from a re-analysis of the deposited data

How the results depend on the processing

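The counts of near pairs called moved by over 1.5 times under these settings. With a Bayes factor of at least 20, 9 were higher and 10 lower, and with no minimum Bayes factor 899 and 841. With a distance of at most 30 nt 14 were higher, and with at most 100 nt 38 were higher and 32 lower. The other alternatives gave 17 to 22 higher and 15 to 25 lower, including 17 and 15 without pairs listed for several symbols. At a Bayes factor of at least 20, SRP9, RACGAP1 and 13 of the other named pairs were no longer called.

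No host gene of a called pair passed an adjusted p under 0.05 under any alternative, and the count stayed at 0 with each replicate left out in turn. The replicate numbers did not pair the libraries (correlations of deviations -0.076 to 0.037), and with a replicate block 0 host genes were higher and 0 lower, with 2 and 1 at an unadjusted p under 0.05. TPM shifted the median log2 fold change of all genes from 0.029 to -0.074, and that of the host genes to -0.115, with 12 of 42 positive. Log2 fold changes near 0 changed sign. SF3B1 was at -0.05 with median-ratio scaling and -0.10 with TPM, and from -0.02 to 0.06 with a replicate left out. SRP9 was at -0.03 with TPM and from -0.13 to 0.30 with a replicate left out. RBFOX2 ran from -0.11 to 0.02 and SRP14 from -0.25 to 0.05 with a replicate left out. The cause was not tested. The comparison by splice site trinucleotide was not run, as it needs a genome of the build of the files. The called share was lower at 10 to 99 reads (0.297%) than at 1000 or more (1.13%), and the reason was not tested. Without replicates the spread of PSI between cultures is unknown.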
